A study of Mus musculus with 6 samples.

Results

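The BCL2 family holds the proteins that set the threshold for mitochondrial cell death, and 10 of its genes were followed here in M2 macrophages: Bcl2, Bcl2l1, Mcl1, Bcl2a1a, Bcl2a1b, Bcl2a1d, Bax, Bak1, Bcl2l11 and Bid. They were chosen by name from the 41549 genes of the table, and all 10 were found and passed the filter on low counts, which 11933 genes passed. Bone marrow-derived macrophages of wild type mice of the C57Bl/6 N strain, young adults going by the age in the study's methods, were grown with M-CSF. They were transfected with a locked nucleic acid antisense oligonucleotide (ASO) and then driven with IL-4 plus IL-13 to M2, an anti-inflammatory state. The control group (Ctr, 3 libraries) received a control ASO and the second group (αGlu, 3 libraries) an ASO against 5′tRF-Glu(CTC), which is cut from the 5′ portion of the tRNA for glutamate. The study describes the libraries of a group as independent experiments. The comparison asks how blocking the fragment before polarization changed the transcripts of the M2 cells. These poly(A) libraries do not measure the fragment itself, so its loss in each culture was not checked here. By qPCR the study reports that the ASO inhibited the fragment in such macrophages, without linking the measurement to these libraries.

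BCL2 proteins meet at the outer mitochondrial membrane. Pro-survival members (BCL2, BCL-XL from Bcl2l1, MCL1 and A1 from the Bcl2a1 genes) hold the effectors BAX and BAK in check, and once freed the effectors open pores through which cytochrome c leaves and caspases are switched on. BH3-only members such as BIM (from Bcl2l11) and BID occupy the pro-survival proteins or engage the effectors directly. MCL1 is a short-lived protein on which many myeloid cells depend, A1 is a known target of NF-κB in leukocytes, and BIM is a well-known killer of blood cells deprived of growth factor.

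Total counts per library ranged from 17912831 to 30386653, with reads for 14539 to 15295 genes. The libraries of a group were not alike. Across genes, log2 CPM (counts scaled to a common library size) of αGlu 1 correlated at 0.966 to 0.982 with the Ctr libraries but at 0.929 with αGlu 2 and αGlu 3, which correlated with each other at 0.992. Among the Ctr libraries, Ctr 1 stood somewhat apart, with a correlation of 0.981 with Ctr 2 and 0.978 with Ctr 3, against 0.988 between these. The arginase gene Arg1, an M2 marker, separated αGlu 1 as well, with 24.3, 45.2 and 41.5 CPM in Ctr and 23.5, 1886 and 1792 CPM in αGlu 1 to 3. The fold changes of the members and of most pathway genes named are therefore given with and without it. Without αGlu 1 the quasi-likelihood test called 49.1% of all genes tested, so a call there singles out no gene. The summed level of 6 macrophage markers was 11604 to 13312 CPM in Ctr and 12306 to 18245 CPM in αGlu. Lyz2 made up the largest part of this sum. In αGlu 2 and αGlu 3, Lyz2, Adgre1, Csf1r and Itgam were above all Ctr libraries, and Cd68 and Mertk below them. Cd68 had 1809, 2063 and 2049 CPM in Ctr and 1990, 1237 and 1144 CPM in αGlu. In bulk RNA, fewer cells of a type and less RNA per cell cannot be told apart.

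The ASO and its target are shown because members of the family could carry a chance match to the ASO. Capitals in the target mark the 20 bases to which the ASO is complementary, and both sequences run 5′ to 3′.
ASO against the fragment: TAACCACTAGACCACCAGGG
target: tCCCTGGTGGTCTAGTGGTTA
The longest run in a member's annotated transcripts that is complementary to the ASO was 9 bases, in Bcl2 and Bcl2l1, a length that 9.08% of all annotated genes reach or exceed. The run was 8 bases in Mcl1, Bak1 and Bcl2l11, reached or exceeded by 28.3% of genes, and no run of 8 bases was found in the 3 Bcl2a1 copies, Bax or Bid. The shares are over 55341 annotated genes of every type and transcript length, not over expressed genes like the members. These are counts of letters in transcript sequences and say nothing of binding.

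Reads of the Bcl2a1 genes need care, since Bcl2a1a, Bcl2a1b and Bcl2a1d are near-identical copies on chromosome 9. In the build the submitters name (GRCm38), Bcl2a1d lies at chr9:88723285-88731914 on the minus strand, Bcl2a1a at chr9:88956900-88962419 and Bcl2a1b at chr9:89199209-89207827, both on the plus strand. Their coding sequences have 516 bases each, with 97.9% identity between Bcl2a1a and Bcl2a1b, 98.6% between Bcl2a1a and Bcl2a1d and 98.8% between Bcl2a1b and Bcl2a1d. The first 90 coding bases are shown because 6 of the positions at which the copies differ lie there, marked by capitals.
Bcl2a1a: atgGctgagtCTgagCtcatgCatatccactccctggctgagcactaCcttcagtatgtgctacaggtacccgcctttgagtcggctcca
Bcl2a1b: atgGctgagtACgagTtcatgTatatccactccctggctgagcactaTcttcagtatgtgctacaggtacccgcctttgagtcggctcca
Bcl2a1d: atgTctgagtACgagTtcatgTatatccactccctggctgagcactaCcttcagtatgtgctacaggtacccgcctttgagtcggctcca
Counted from the A of the start codon and with the base of Bcl2a1a first, Bcl2a1b carried C11A, T12C, C16T, C22T and C48T in this stretch. The share of transcript positions at which a read fits only 1 gene depends on the read length. At 100 bases it was 56.5% for Bcl2a1a, 43.2% for Bcl2a1b and 45.3% for Bcl2a1d, at 50 bases 31.0%, 20.8% and 20.5%, and at 150 bases 71.8%, 58.1% and 69.7%. The read length and how reads that fit several genes were counted are not stated, and the split between the copies is uncertain and their sum is given beside it. Of other related gene models, Bcl2a1c had 0 to 1 reads per library and Gm29094 had 53 to 79.

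Levels of different genes were compared per transcript length, in the deposited TPM, a unit of transcripts that sums to the same total in every library. In Ctr, 2 pro-survival genes led, with Bcl2a1b at 633 ± 139 TPM (SD, n = 3) and Mcl1 at 615 ± 100 TPM, and their libraries overlapped. The places of the single Bcl2a1 copies rest on an uncertain split of reads. Summed, the copies had 746 ± 156 TPM in Ctr, and their libraries also overlapped with those of Mcl1. The effectors followed, Bax at 181 ± 4.9 TPM and Bak1 at 153 ± 19 TPM. Next came Bcl2a1d at 88.9 ± 25 TPM, Bcl2l11 at 62.5 ± 2.4 TPM, Bcl2l1 at 48.8 ± 5.3 TPM, Bid at 32.2 ± 5.8 TPM and Bcl2a1a at 24.4 ± 7.3 TPM. Bcl2, the gene that names the family, was the lowest at 4.73 ± 0.56 TPM. Apart from Bcl2a1b with Mcl1 and Bid with Bcl2a1a, no neighbours in this order overlapped between their Ctr libraries. Of the summed TPM of the 6 pro-survival genes, Mcl1 held 37.5 to 49.7% in Ctr and 37.9 to 42.3% in αGlu, Bcl2l1 2.76 to 3.85% over the 6 libraries, and Bcl2 no more than 0.351% in any.

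**Figure D1:**
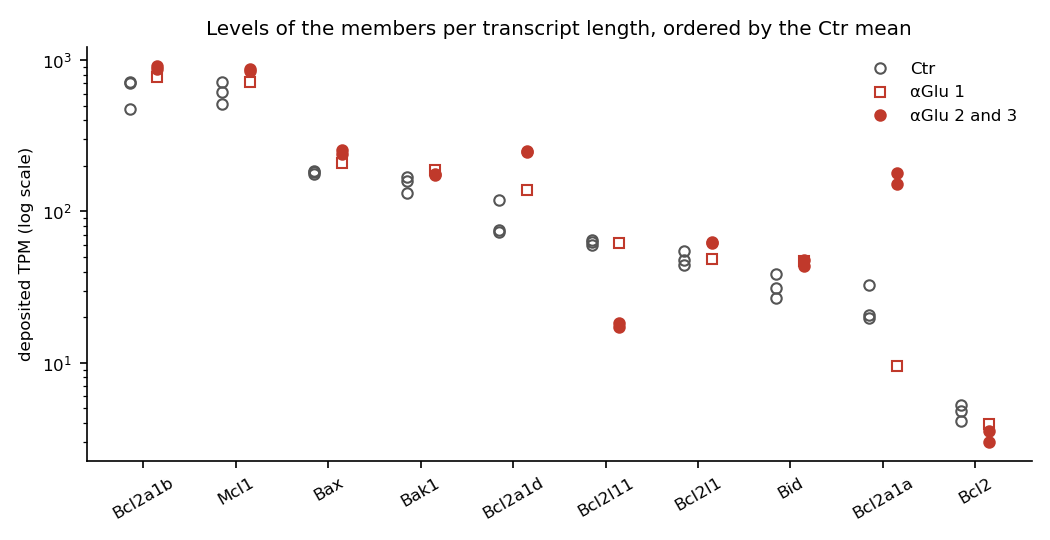
Deposited TPM of the 10 members on a log scale (y axis), ordered by the Ctr mean (x axis), with 1 point per library: open circles are Ctr, open squares αGlu 1 and filled circles αGlu 2 and αGlu 3. Bcl2a1b and Mcl1 lie highest and Bcl2 lowest in Ctr, and αGlu 2 and αGlu 3 leave the Ctr points furthest for Bcl2a1a and Bcl2l11.

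Between αGlu and Ctr, 0 of the 10 members passed an adjusted p of 0.1 in edgeR's quasi-likelihood test, and neither did any of the 11933 genes tested (0%). At an unadjusted p under 0.05 there were 4 members, Bcl2, Bcl2a1d, Bax and Bid, in a background of 24.7% of all genes, and limma-voom also called 0 genes at an adjusted p of 0.1. DESeq2 called 4 members. Over all genes it called 12.1% of the 17915 genes with reads, and 15.8% of the 13742 genes to which it gave an adjusted p. The members were Bcl2a1a, Bcl2a1d and Bax, higher in αGlu (5.92% of the 17915 genes), and Bcl2, lower in αGlu (6.21%). With edgeR's likelihood-ratio test 1 member, Bcl2a1d, was called, and 11.6% of all genes. Without αGlu 1, the quasi-likelihood test called 6 members, Bcl2a1a, Bcl2a1d, Bax and Bid higher (23.5% of all genes) and Bcl2 and Bcl2l11 lower (25.6%). In TMM-scaled CPM, all 3 αGlu libraries lay above all 3 Ctr libraries for 4 members (14.2% of all genes) and below them for 2 members (15.9%), in all 6 of 10 members and 30.2% of all genes. The median log2 fold change of the members was 0.29, against 0.02 over all genes tested. The near-identical Bcl2a1 copies enter these counts and this median as 3 members. In TPM and in CPM scaled by library size alone, Bcl2l11 overlapped between the groups and Bak1 did not.

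**Figure D2:**
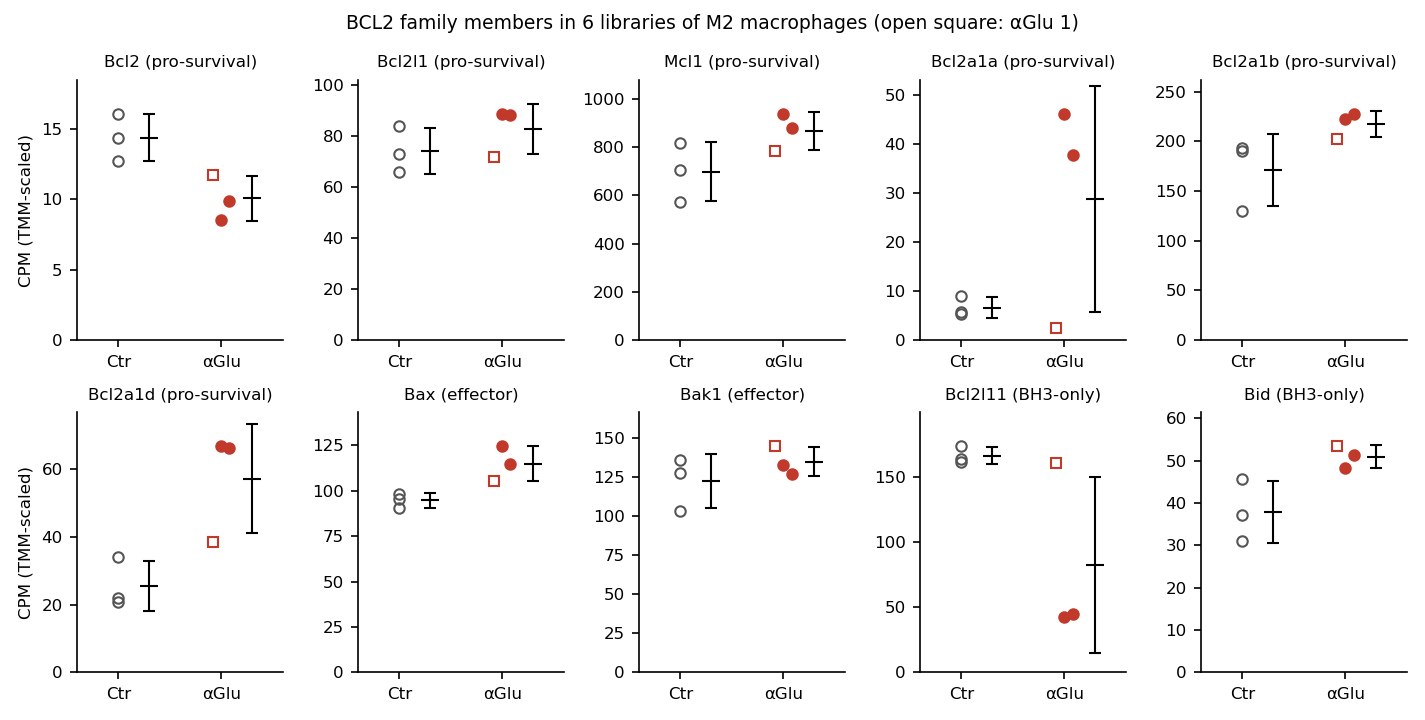
CPM scaled by TMM factors (y axes, each from 0) of the 10 members by group (x axes), with 1 point per library and the mean ± SD of each group's 3 libraries beside it. αGlu 1, the open square, lies with Ctr for Bcl2l11, below all Ctr libraries for Bcl2a1a, and with the other αGlu libraries for Bid.

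Among the pro-survival genes, the 3 Bcl2a1 copies as counted differed in size of change, with the split of reads between them uncertain. Bcl2a1d had 20.6, 21.8 and 34.1 CPM in Ctr 1 to 3, and 38.4, 66.6 and 66.2 CPM in αGlu 1 to 3. All αGlu libraries were above all Ctr libraries, αGlu 1 least, and the mean was 2.24 times that of Ctr. The log2 fold change was 1.17 ± 0.29 (SE), with an adjusted p of 0.156 by edgeR's quasi-likelihood test, and 1.38 ± 0.21 without αGlu 1 (adjusted p = 0.00334). Bcl2a1a had 5.27, 5.64 and 9.0 CPM in Ctr, and 2.52, 46.1 and 37.7 CPM in αGlu. With 44 reads, αGlu 1 was thus the lowest of the 6 libraries, while αGlu 2 and αGlu 3 averaged 6.31 times the Ctr mean. The fold change over all libraries was 2.12 ± 0.93 on the log2 scale (quasi-likelihood adjusted p = 0.220), and without αGlu 1 it was 2.66 ± 0.23 (edgeR adjusted p = 0.000354).

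Bcl2a1b, the copy with most reads, showed the smallest difference. It had 191, 130 and 193 CPM in Ctr and 203, 223 and 228 CPM in αGlu. The log2 fold change was 0.35 ± 0.17 (edgeR adjusted p = 0.258), and 0.18 ± 0.11 without Ctr 2, the lowest library. Without αGlu 1 it was 0.39 ± 0.18. The groups did not overlap, but αGlu 1 and Ctr 3 lay close together. Of the reads of the 3 copies, Bcl2a1a held 2.43, 3.59 and 3.81% in Ctr 1 to 3 and 1.04, 13.7 and 11.4% in αGlu 1 to 3, and Bcl2a1b held 81.8 to 88.0% in Ctr and 83.2, 66.4 and 68.7% in αGlu. Summed before the fit, the copies had 203 ± 41 CPM in Ctr and 304 ± 52 CPM in αGlu (SD, n = 3), without overlap between the groups. The fold change of the sum was 0.58 ± 0.20 on the log2 scale, with an edgeR adjusted p of 0.175.

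The start regions of the copies are shown because their upstream sequences were nearly the same. Whether the copies truly differ in change is uncertain, since the split of reads between them is, and no cause was tested. The stretch of Bcl2a1a (RefSeq, GRCm38, chr9:88956714-88956833, plus strand) and that of Bcl2a1b (chr9:89199023-89199142, plus strand) were identical over 120 bases. That of Bcl2a1d (chr9:88731931-88732050, minus strand) differed from both at 14 positions when laid beside them without gaps. Most of these positions lie near its end, where Bcl2a1d lacks a short run of bases and the rest is shifted. Capitals mark TGAATCA, a match to TGANTCA, the pattern searched for AP-1 with any base allowed at N. It reads as a match on both strands.
Bcl2a1a and Bcl2a1b: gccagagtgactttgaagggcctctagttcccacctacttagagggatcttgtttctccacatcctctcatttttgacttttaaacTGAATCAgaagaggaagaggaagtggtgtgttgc
Bcl2a1d: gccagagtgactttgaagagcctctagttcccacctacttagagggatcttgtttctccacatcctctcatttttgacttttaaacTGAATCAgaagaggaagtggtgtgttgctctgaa
In the 250 bases before a RefSeq start, TGANTCA was found for 3 of the 10 members, the Bcl2a1 copies, in 3 of 13 member windows. Over all genes it was found in 6.75% of 32851 windows. The copies have nearly the same upstream sequence, so their matches are not independent. GGGNNTTCC (NF-κB) was found for Bcl2l1 alone (4.98% of windows), the STAT6 motif for no member (5.85%) and TGTTTAC (FOXO) for Bcl2l11 alone (3.17%), each searched on both strands. A match is a run of letters and not a measured binding site.

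Mcl1 was the most abundant pro-survival gene besides Bcl2a1b, with 573, 704 and 819 CPM in Ctr and 784, 938 and 878 CPM in αGlu. The groups overlapped through αGlu 1 and Ctr 3, and the log2 fold change of 0.31 ± 0.17 had an edgeR adjusted p of 0.291. It was 0.20 ± 0.16 without Ctr 1 and 0.37 ± 0.16 without αGlu 1. Bcl2l1, which encodes BCL-XL, had 65.9, 73.0 and 83.8 CPM in Ctr and 71.6, 88.7 and 88.1 CPM in αGlu. Here too αGlu 1 lay within the Ctr range, and the log2 fold change was 0.16 ± 0.13 (edgeR adjusted p = 0.454). It was 0.09 ± 0.14 without Ctr 1, 0.25 ± 0.13 without Ctr 3 and 0.25 ± 0.11 without αGlu 1. Bcl2 differed in the other direction. It had 14.4, 12.7 and 16.1 CPM in Ctr and 11.7, 8.56 and 9.90 CPM in αGlu, so that every αGlu library was below every Ctr library. The log2 fold change was -0.52 ± 0.16 with an adjusted p of 0.160 by edgeR's quasi-likelihood test, and -0.64 ± 0.14 without αGlu 1 (adjusted p = 0.0121).

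The effectors differed little. Bax had 90.3, 98.5 and 95.6 CPM in Ctr and 105, 125 and 114 CPM in αGlu, with αGlu 1 lowest of its group but above all Ctr libraries. Its log2 fold change was 0.28 ± 0.09 with an edgeR adjusted p of 0.168, and 0.33 ± 0.08 without αGlu 1 (adjusted p = 0.0217). Bak1, the second effector, had 103, 136 and 128 CPM in Ctr and 145, 133 and 127 CPM in αGlu. These groups overlapped, with Ctr 1 the lowest library, and the log2 fold change was 0.14 ± 0.13 (edgeR adjusted p = 0.494). It was 0.04 ± 0.10 without Ctr 1, 0.22 ± 0.14 without Ctr 2 and 0.08 ± 0.13 without αGlu 1. In TPM and in CPM scaled by library size alone, all αGlu libraries were above all Ctr libraries for Bak1. Library size alone moved the median log2 fold change of all genes from 0.02 to 0.10.

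The BH3-only genes Bid and Bcl2l11 differed in opposite directions. Bid, which links death receptors to mitochondria once caspase-8 has cut it, had 31.0, 37.2 and 45.6 CPM in Ctr and 53.4, 48.2 and 51.2 CPM in αGlu. Here αGlu 1 was the highest library of all, the groups did not overlap, and the log2 fold change was 0.43 ± 0.15 (edgeR adjusted p = 0.174). Without αGlu 1 it was 0.39 ± 0.16 (edgeR adjusted p = 0.0952). Bcl2l11 had 164, 162 and 174 CPM in Ctr 1 to 3, and 161, 42.9 and 44.7 CPM in αGlu 1 to 3. The first of these lay less than 1 CPM below the lowest Ctr library, and above it in TPM and in CPM scaled by library size alone, whereas αGlu 2 and αGlu 3 lay far below. The mean of αGlu 2 and αGlu 3 was 3.80-fold lower than that of Ctr. Over all 6 libraries the log2 fold change was -1.01 ± 0.54 with an edgeR adjusted p of 0.280. Without αGlu 1 it was -1.93 ± 0.08 with an edgeR adjusted p of 3.36e-05, in a fit that called 49.1% of all genes tested. Leaving out the αGlu library nearest Ctr also took the SE from 0.54 to 0.08, so this p does not rank the members.

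The upstream sequence of Bcl2l11 is shown because the FOXO motif was found for this member alone. BIM is a textbook target of FOXO3, but a link between Foxo3 and Bcl2l11 was not tested here. The stretch lies at chr2:128125788-128125867 on the plus strand (RefSeq, GRCm38), and capitals mark the reverse complement of TGTTTAC.
Bcl2l11: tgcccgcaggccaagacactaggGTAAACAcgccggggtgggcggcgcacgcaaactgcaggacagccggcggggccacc
The motif ended 221 bases before the annotated start. No binding was measured in these libraries.

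**Figure D3:**
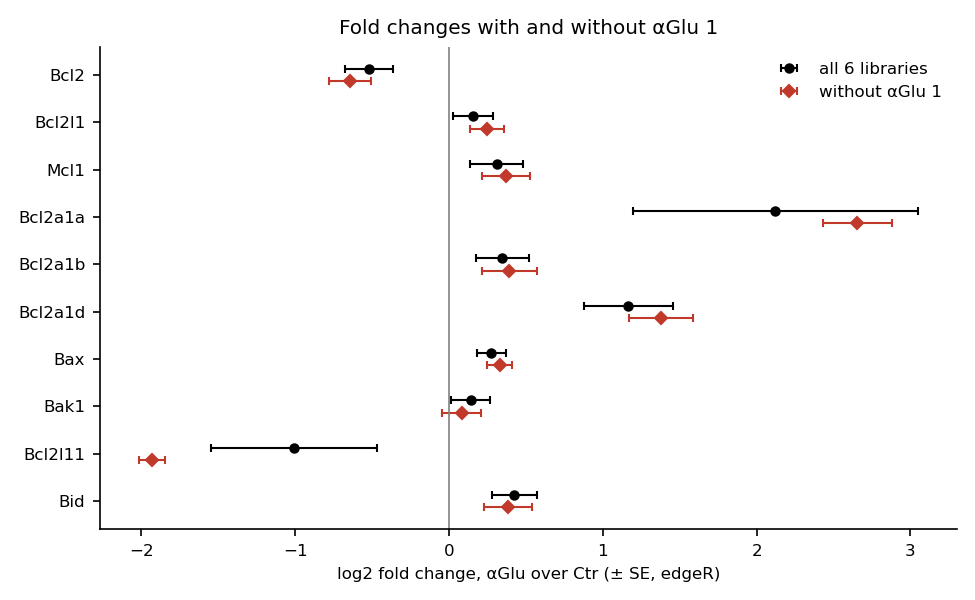
Log2 fold change of αGlu over Ctr with its SE (x axis, edgeR) for the 10 members (y axis), from all 6 libraries (black circles) and without αGlu 1 (red diamonds). Without αGlu 1 the SE of Bcl2a1a fell from 0.93 to 0.23 and that of Bcl2l11 from 0.54 to 0.08, while Bak1 and Bid moved toward 0.

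How far αGlu 1 followed the other αGlu libraries varied by member. For 9 of the 10 members αGlu 2 and αGlu 3 both lay on 1 side of all Ctr libraries, and for 2 of these 9, Bcl2l1 and Mcl1, αGlu 1 was inside the Ctr range. That is 22.2%, against 37.6% of the 7851 such genes among all tested. Lying outside the Ctr range is not the same as following the other αGlu libraries, for the members or for all genes. For Bcl2a1a, αGlu 1 lay on the opposite side of Ctr, and for Bcl2l11 it was inside the Ctr range in TPM. Relative to the Ctr mean, αGlu 1 stood at 1.41 for Bid and the mean of αGlu 2 and αGlu 3 at 1.31. For Bcl2l11 the corresponding ratios were 0.966 and 0.263, and for Bcl2a1a 0.380 and 6.31.

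Ratios between members within a library are often quoted for this family and are given as a description. The log2 ratio of Bax to Bcl2 TPM was 5.19, 5.49 and 5.11 in Ctr and 5.71, 6.40 and 6.07 in αGlu, higher in all αGlu libraries. The log2 ratio of Bcl2l11 to Mcl1 TPM was -3.04, -3.35 and -3.47 in Ctr and -3.52, -5.68 and -5.53 in αGlu. The library αGlu 1 was next to Ctr and the other αGlu libraries were lower by more than the whole range of Ctr. The log2 ratio of the summed Bcl2a1 copies to Mcl1 averaged 0.27 ± 0.38 in Ctr and 0.53 ± 0.14 in αGlu (SD, n = 3), with overlapping libraries.

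**Figure D4:**
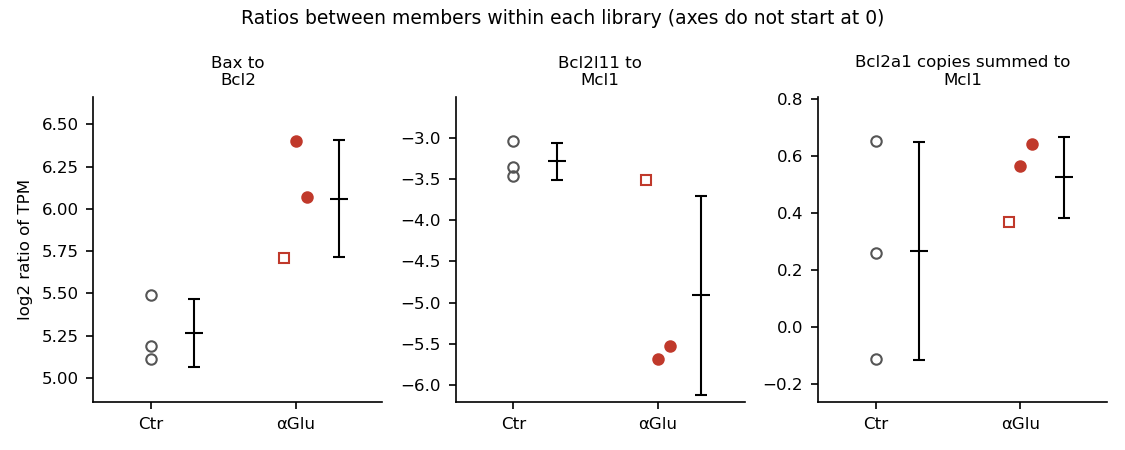
Log2 ratio of TPM (y axes, not starting at 0) of Bax to Bcl2, Bcl2l11 to Mcl1 and the summed Bcl2a1 copies to Mcl1, by group (x axes), with 1 point per library, αGlu 1 as an open square, and the mean ± SD of 3 libraries. All αGlu points are above Ctr for Bax to Bcl2, only αGlu 2 and αGlu 3 are far below Ctr for Bcl2l11 to Mcl1, and the groups overlap in the last panel.

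The members that varied most over the 6 libraries were Bcl2a1a (SD of log2 CPM 1.66), Bcl2l11 (0.99) and Bcl2a1d (0.74). Among the 8567 genes whose mean log2 CPM reached 3, the patterns most like Bcl2a1a over the 6 libraries were those of Phospho2 (Pearson r = 0.999), Cct8 (0.998) and Rfx5 (0.996). For Bcl2a1d they were Nufip1 (0.998), Rida (0.996) and Slc25a15 (0.996). For Bcl2l11 they were Scrn3, Lipa, which encodes lysosomal acid lipase, and Cd300a, which encodes an inhibitory receptor of myeloid cells. As many as 842 genes reached r above 0.95 with Bcl2l11, against 305 with Bcl2a1d and 189 with Bcl2a1a. The points share libraries and depth, and αGlu 2 and αGlu 3 sit apart from the rest, so these values rest largely on that separation.

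The rest of the family was listed with 15 genes, of which 9 were tested. None was called, and 4 of 9 had an unadjusted p under 0.05 (24.7% of all genes). All αGlu libraries were above all Ctr libraries for 2 of 9 (14.2% of all genes) and below for 1 of 9 (15.9%). The median log2 fold change was -0.12. Bcl2l2, which encodes the pro-survival BCL-W, had 28.9, 32.6 and 28.7 CPM in Ctr and 39.5, 38 and 38.8 CPM in αGlu, αGlu 1 included. Its log2 fold change of 0.36 ± 0.08 had an edgeR adjusted p of 0.152. Bnip3, a mitophagy receptor induced by hypoxia, had 11.9, 11 and 11.9 CPM in Ctr and 11.5, 67.0 and 66.5 CPM in αGlu, with a log2 fold change of 2.06 ± 0.63 (edgeR adjusted p = 0.160). Its relative Bnip3l had 247, 243 and 213 CPM in Ctr and 193, 206 and 170 CPM in αGlu, with a log2 fold change of -0.31 ± 0.11 (edgeR adjusted p = 0.185). The other gene whose αGlu libraries were all above Ctr was Bad, which encodes a BH3-only protein governed by phosphorylation, at 0.21 ± 0.08. The BH3-only genes Pmaip1, Bbc3 and Bmf had log2 fold changes of -0.63 ± 0.36, -0.26 ± 0.28 and -0.12 ± 0.11, and none of these passed the test. Bcl2l12 was at -0.18 ± 0.19 and Bcl2l13 at 0.24 ± 0.17. Bcl2l10, Bok, Bik, Hrk, Bcl2l14 and Bcl2l15 had too few reads to be tested, and Bcl2l10 and Hrk had 0 reads in every library. Without αGlu 1, 4 of the 9 were called higher and 3 lower, in a fit that called 23.5% of all genes higher and 25.6% lower. There the log2 fold change of Bnip3 was 2.52 ± 0.07 (edgeR adjusted p = 9.96e-06), that of Bcl2l2 0.35 ± 0.08 (0.0183) and that of Bnip3l -0.32 ± 0.12 (0.0758).

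Downstream of the mitochondria, 14 genes of the apoptosome and caspase cascade were listed and all were tested. None was called, and 3 of 14 had an unadjusted p under 0.05 (24.7% of all genes). The groups did not overlap for 2 genes that were higher (14.2% of all genes) and 1 that was lower in αGlu (15.9%). The median was -0.03. Apaf1, the scaffold of the apoptosome, had 54.7, 57.4 and 49.9 CPM in Ctr and 65.0, 94.9 and 96.9 CPM in αGlu. Its log2 fold change was 0.66 ± 0.17 (edgeR adjusted p = 0.156). Casp9, the caspase that Apaf1 activates, had 83.2, 88.4 and 77.8 CPM in Ctr and 75.5, 43.2 and 45.1 CPM in αGlu, with a log2 fold change of -0.61 ± 0.23 (edgeR adjusted p = 0.185). Cycs, Casp6, Diablo, Htra2, Xiap, Endog, Aifm1, Dffa, Dffb and Parp1 had log2 fold changes from -0.18 (Xiap) to 0.53 (Casp6) and overlapping groups. Without αGlu 1 the log2 fold change was 0.82 ± 0.08 for Apaf1 (edgeR adjusted p = 0.000668), -0.92 ± 0.08 for Casp9 (0.000472) and 0.82 ± 0.08 for Casp6 (0.000563).

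**Figure D5:**
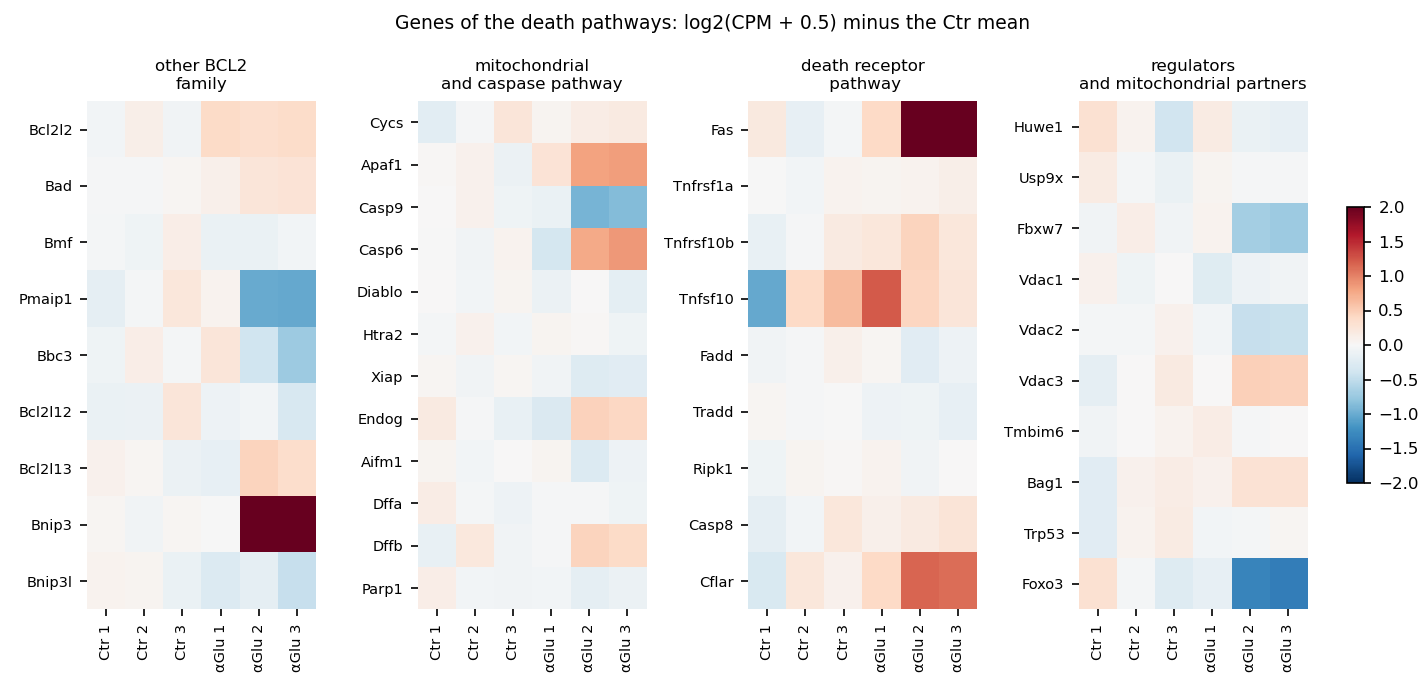
Log2(CPM + 0.5) minus the Ctr mean (colour, stopping at ±2) for the genes named from the 4 lists (rows) in the 6 libraries (columns). αGlu 2 and αGlu 3 are alike throughout, αGlu 1 is near Ctr for Bnip3, Fas, Casp9 and Foxo3, and only Fas and Bnip3 reach the end of the colour scale.

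Of 10 death receptor genes 9 were tested, all but Fasl. None was called, and 2 of 9 had an unadjusted p under 0.05 (24.7% of all genes). The groups did not overlap for 3 of 9 genes that were higher (14.2% of all genes) and 1 of 9 that was lower in αGlu (15.9%). The median log2 fold change was 0.17. Fas, the receptor itself, had 4.09, 3.05 and 3.39 CPM in Ctr and 4.76, 32 and 35.2 CPM in αGlu, with a log2 fold change of 2.78 ± 0.72 (edgeR adjusted p = 0.156). Cflar, which encodes the caspase-8 inhibitor c-FLIP, had 110, 159 and 145 CPM in Ctr and 179, 307 and 296 CPM in αGlu, with a log2 fold change of 0.92 ± 0.25 (edgeR adjusted p = 0.157). Fas and its downstream brake Cflar were both above Ctr in every αGlu library. Without αGlu 1 the log2 fold change was 3.26 ± 0.13 for Fas (edgeR adjusted p = 2.86e-05) and 1.12 ± 0.16 for Cflar (0.00237). Tnfrsf10b, the mouse TRAIL receptor, was barely expressed at 0.45 to 0.94 CPM, and its log2 fold change was 0.52 ± 0.30 (edgeR adjusted p = 0.301). Tnfsf10, which encodes TRAIL, Casp8, Tnfrsf1a, Ripk1, Fadd and Tradd had log2 fold changes of 0.59 ± 0.54, 0.17 ± 0.13, 0.08 ± 0.08, 0.003 ± 0.08, -0.10 ± 0.11 and -0.12 ± 0.08.

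The last list held 10 regulators and mitochondrial partners of the family, all tested, with 0 calls, 0 at an unadjusted p under 0.05 (24.7% of all genes) and a median of -0.04. All αGlu libraries were below all Ctr libraries for 1 of 10 (15.9% of all genes) and above them for 0 of 10 (14.2%). The gene was Vdac2, a channel that binds BAK and BAX in the outer membrane. It had 301, 302 and 327 CPM in Ctr and 299, 226 and 227 CPM in αGlu. The log2 fold change was -0.31 ± 0.14 (edgeR adjusted p = 0.233). Vdac3 had 67.1, 76.9 and 86.3 CPM in Ctr and 77.1, 106 and 105 CPM in αGlu, at 0.33 ± 0.16 (edgeR adjusted p = 0.253). Without αGlu 1 Vdac2 was at -0.46 ± 0.09 (edgeR adjusted p = 0.00738) and Vdac3 at 0.46 ± 0.11 (0.0213). Foxo3, the transcription factor, had 144, 113 and 97.9 CPM in Ctr and 105, 46.3 and 44.3 CPM in αGlu. Its log2 fold change was -0.86 ± 0.37 (edgeR adjusted p = 0.215) and, without αGlu 1, -1.39 ± 0.17 (adjusted p = 0.00136). Huwe1, Usp9x, Fbxw7, Vdac1, Tmbim6, Bag1 and Trp53 lay between -0.41 (Fbxw7) and 0.22 (Bag1).

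Markers of other cells moved with the groups in places. Of 10 neutrophil markers 4 exceeded 1 CPM in any library, Ly6g and Retnlg had 0 reads, and the summed level was 107 to 160 CPM in Ctr and 186 to 609 CPM in αGlu. Nearly all of this sum was Csf3r, at 103 to 158 CPM in Ctr and 183, 536 and 607 CPM in αGlu, a gene that macrophages can also express. The 6 dendritic cell markers summed to at most 1.18 CPM, the 8 lymphocyte markers to at most 0.283 CPM, the 5 mast cell and basophil markers to at most 5.16 CPM and the 5 fibroblast markers to at most 7.18 CPM in any library. Of 6 markers of the IL-4 and IL-13 response, summing to 2791 to 4495 CPM in Ctr and 4000 to 6929 CPM in αGlu, Retnla had 540, 245 and 289 CPM in Ctr and 101, 0.03 and 0.04 CPM in αGlu, and Mgl2 had 87.9, 66.3 and 83.9 CPM in Ctr and 10.6, 0.50 and 2.35 CPM in αGlu. Of the others, Mrc1 had 948, 771 and 898 CPM in Ctr and 840, 1513 and 2379 CPM in αGlu, and Chil3 had 2895, 1789 and 1479 CPM in Ctr and 3025, 3529 and 2160 CPM in αGlu. Cd209a stayed under 1 CPM in every library. The part of these differences in the levels of the BCL2 family was not tested.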

How the data were processed

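Processed files of 6 stranded mRNA libraries were analysed, 3 per group, grouped by the library names in the labels. The authors used the RNA-seq Analysis Portal of QIAGEN on the reads. GRCm38 is the build in the submitters' processing notes, and the aligner, annotation and handling of reads that fit several genes are not given in the sources used here. The deposited counts are whole reads per gene without normalization. The deposited TPM and RPKM values are scaled by the authors to length and depth. A deposited CPM column was not used.

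Low counts were removed in edgeR 4.0.16 (filterByExpr, minimum count 10 in at least 3 libraries of average depth, 15 in all), scaled by TMM factors (trimmed mean of M-values, 0.951 to 1.07) and fitted over all genes with a quasi-likelihood model that held only the group, in R 4.3.3. Two-sided p-values were adjusted by Benjamini-Hochberg over all genes tested and a threshold of 0.1, without a fold limit. Fold changes are αGlu over Ctr with standard errors derived from the F statistic, and log2 CPM has a prior count of 2. The code was tested on simulated data. No pair of libraries was alike within sampling noise, with a chi-square per gene of at least 19.8. Alternatives were DESeq2 1.42.0, limma 3.58.1 (voom), edgeR's likelihood-ratio and robust tests, other scalings, filters and thresholds, a replicate block, the Bcl2a1 copies summed, deposited RPKM, and each library left out. Coordinates are from GENCODE M21, which holds 41474 of the 41549 identifiers, and upstream sequences from RefSeq. No protein sequences were used here, so identity is that of coding sequences.

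Members and lists were chosen with earlier results of these data known. Named genes are the members, of each list the 3 with the smallest unadjusted p and any whose groups lay more than 1 apart on the log2 scale, and the 3 genes most like each of the 3 most variable members. Values of 2 genes of the caspase list are not reported here, though the counts for that list include them. Arg1 and the other single markers were named after their values were seen. P-values set the difference between the groups against the spread between these libraries, which the study describes as independent experiments.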

Additional observations from a re-analysis of the deposited data

How the results depend on the processing

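Over 17 alternatives and the 22 members and pathway genes chosen by the naming rule, no fold change reversed, 338 results kept their side of the threshold and 32 passed it where they had not before. In place of 0 genes, DESeq2 called 2173, edgeR's likelihood-ratio test 1389 and the replicate block 17. For the members the counts were 4 with DESeq2, 1 with the likelihood-ratio test and 0 with the block. For the rest of the family, the caspase list and the death receptor list, DESeq2 called 2 each and the likelihood-ratio test 1, 1 and 2. Leaving out 1 library gave 0 to 6055 genes, 0 to 6 members, 0 to 7 of the rest of the family, 0 to 6 of the caspase list, 0 to 2 of the death receptor list and 0 to 4 of the regulators, and every count above 0 came from leaving out αGlu 1. That leaves 2 αGlu libraries, and the cause of these shifts was not tested. In the order by TPM, 2 neighbour pairs overlapped in Ctr, and 1 with the Bcl2a1 copies summed.

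Same-numbered libraries deviated together weakly, with correlations of 0.0764, 0.0646 and 0.154, and each correlated best, across groups, with its own number. These values are weak. The study used a paired test for its qPCR of the fragment in such macrophages, but the labels do not say that equal numbers mark pairs. The numbers were therefore not taken as pairs. The lowest depth, 17912831 counts, was that of αGlu 1, where Bcl2a1a had 44 reads.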
